A study of Mus musculus with 24 samples.

Results

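Cells of *Cep135* (-/-) mouse embryos were compared after 12 h of culture with the uncultured cortex of the same embryos. The comparison holds 6 of the 24 libraries of the series. They are the dorsal telencephalon of mutant embryos 1, 2 and 6 at E14.5, and the dissociated cells of these 3 embryos after 12 h in culture, chosen by genotype, age and culture time as labelled and paired by embryo number. *Cep135* encodes a protein of the centriole. The mutant allele, called Δ8 in the study, was made in mouse embryos with CRISPR/Cas9 and is present in every cell, and the samples carry no other labelled allele or drug. The same samples of *Cep135* (+/+) embryos 3, 4 and 5 served as reference where named. Per the methods of the study, the neocortices were digested with papain and the cells kept as floating neurospheres in serum-free medium with N2 and B27 supplements, EGF, FGF2 and heparin. Culture therefore changed dissociation, medium, growth factors and time at once, and the parts of these changes cannot be told apart. The cortex of embryo 6 carries E14.5 in its title and source but E11.5 in its description. Over 13678 genes its nearest other E14.5 cortex lay at a Euclidean distance of 56.0 on the log2 scale and its nearest E11.5 cortex at 96.4. It was used as an E14.5 cortex, and the counts of each gene list are also given without embryo 6.

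The cortex at E14.5 holds apical progenitors, which line the ventricle and keep Notch signalling active, intermediate progenitors marked by *Eomes*, and young neurons. It also holds blood vessels, meninges and microglia. In neurosphere culture EGF and FGF2 act through receptor tyrosine kinases and the ERK cascade, which induces immediate early genes within minutes and feedback inhibitors such as the Sprouty and dual-specificity phosphatase genes later. Serum-free medium holds little lipoprotein cholesterol, and cells that sense low sterol release the transcription factor SREBP2, which induces the enzymes of cholesterol synthesis.

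Each value below is a normalized read count, the number of 3′ reads on a gene divided by 1 size factor per library. The 6 libraries held 6490903 to 10620164 reads on genes. The noncoding RNA gene *Gm42418*, which carries ribosomal RNA sequence, took 10.9% to 15.0% of the normalized counts in the 3 cortices and 18.9% to 32.7% in the 3 cultures. Ribosomal protein genes took 5.94% to 6.31% in cortex and 3.69% to 4.28% in culture, and mitochondrial genes 4.40% to 5.44% over all 6. Genes with at least 1 read numbered 20634 to 23475 in cortex and 16377 to 20324 in culture. These shares moved with culture, and their part in the results was tested only by rescaling to the total without *Gm42418* and mitochondrial genes. *Cep135* itself (ENSMUSG00000036403, chromosome 5 of GRCm38, 76588698 to 76646466, plus strand) had counts of 224, 173 and 283 in the cortices of embryos 1, 2 and 6 and 260, 213 and 262 in their cultures. The difference was 0.13 on the log2 scale (standard error, SE, 0.19, adjusted p = 0.677 from limma). Reads at the 3′ end leave the edited exon unseen, so they cannot check the genotype.

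Culture for 12 h changed 1982 of 13617 genes tested, which is 14.6%, at an adjusted p under 0.05 in limma with the embryo as a block. Of these, 870 (6.39%) rose and 1112 (8.17%) fell. A change of at least 1 on the log2 scale was reached by 309 risen genes (2.27%) and 643 fallen genes (4.72%). The median log2 fold change over all genes tested was -0.04, with the middle 90% between -1.78 and 1.02. The direction was the same in all 3 embryos for 1977 of the 1982 genes, and for 49.9% of all genes tested. The 1982 genes were called on these same differences, so their agreement largely follows from the call. The log2 differences of single embryos correlated over genes at r = 0.632 for embryos 1 and 2, 0.500 for 1 and 6, and 0.414 for 2 and 6. Without embryo 6 there were 1367 risen and 1695 fallen genes, and without embryo 1 there were 340 and 512. Without embryo 2 there were 784 and 1089, and without the block 540 and 679. List counts given below for these fits are to be read beside these totals. The shares of 6.39% and 8.17% belong to the fit with all 3 embryos and the block.

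The genes that rose most fell into a few kinds. *Egr1*, an immediate early transcription factor, *Fos*, a subunit of the AP-1 factor, *F2rl1*, a protease-activated receptor, and *Grin2c*, a subunit of the NMDA receptor, stood among the 10 largest rises, together with *Alb*, *Apoa2*, *Serpina1b*, *Serpina1c*, *Serpina1e* and *Serpina3k*, which are transcripts of the liver. *Grin2c* was at 5.65, 0 and 1.57 in the cortices of embryos 1, 2 and 6 and at 144, 169 and 127 in culture, a log2 fold change of 5.84 (SE 0.69, adjusted p = 8.49e-05 from limma). *F2rl1* was at 0, 1.10 and 0 in cortex and at 73.1, 64.2 and 57.3 in culture. For both genes cortex and culture did not overlap. Both were picked as largest rises and reached the mean count of 10 through the cultures, so this is a description only. Cortex and culture did not overlap for 32.3% of all genes tested. The 10 largest falls were *Abcc9*, *Apod*, *Ccdc3*, *Cd34*, *Cd93*, *Cldn11*, *Csf1r*, *Cx3cr1*, *Foxc1* and *Gjb6*, among them markers of pericytes, endothelium, microglia and meninges.

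**Figure D1:**
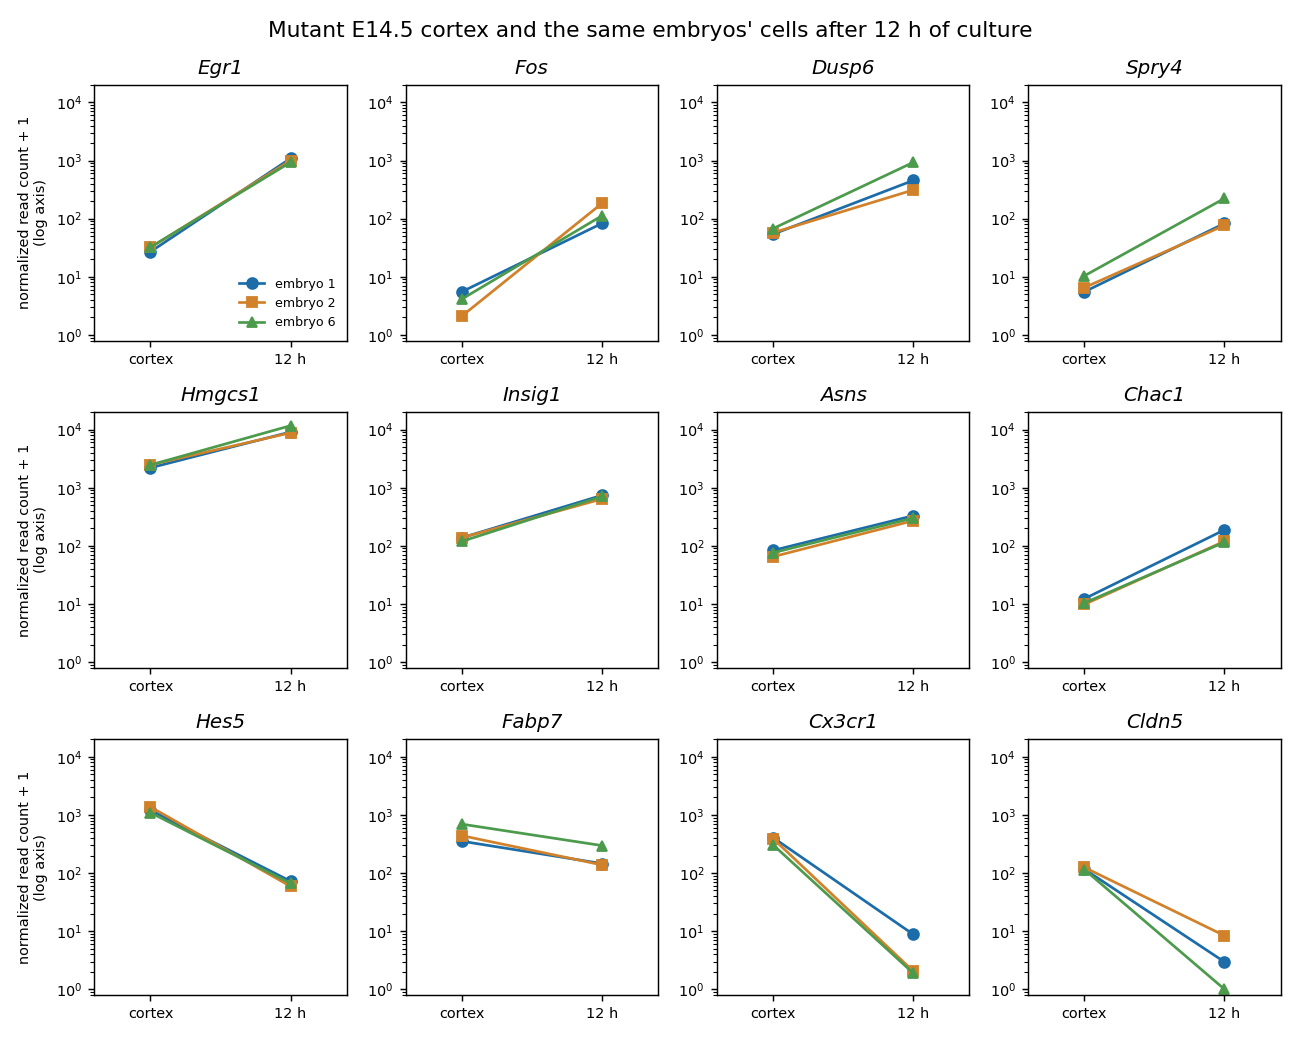
Normalized read counts plus 1 (log axis, same range in every panel) of 12 genes in the cortex and the 12 h culture of mutant embryos 1, 2 and 6, with 1 line per embryo. The 8 genes of the upper rows rose in all 3 embryos and the 4 genes of the lowest row fell in all 3, and in no panel did cortex and culture overlap.

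The genes of cholesterol synthesis and uptake rose together. Of 25 such genes, all of them tested, 23 rose and 0 fell, against 6.39% of all genes tested that rose, and the median log2 fold change was 1.63. All 25 had a positive log2 fold change, and 24 were higher in culture in each of the 3 embryos. The median of the single embryos was 1.59, 1.52 and 1.75. *Hmgcs1* (ENSMUSG00000093930, chromosome 13, 119690379 to 119708260, plus strand) acts early in the pathway. Its count was 2202, 2481 and 2463 in the cortices of embryos 1, 2 and 6 and 9101, 8806 and 11688 in their cultures. All cultures lay above all cortices, and the log2 fold change was 2.04 (SE 0.12, adjusted p = 2.13e-07 from limma).

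Further down the pathway *Fdps*, which makes farnesyl diphosphate, rose by 2.07, *Sqle*, which epoxidises squalene, by 1.63 and *Lss*, which closes the sterol rings, by 2.33 on the log2 scale. *Msmo1*, which removes methyl groups from sterol intermediates, rose by 2.24. *Insig1*, which holds SREBP factors in the endoplasmic reticulum and is itself induced by them, was at 137, 137 and 118 in cortex and at 738, 639 and 706 in culture. It rose by 2.40 (SE 0.17, adjusted p = 1e-06 from limma), and *Srebf2*, which encodes SREBP2, by 1.02. *Ebp*, a sterol isomerase, missed the threshold (0.71, adjusted p = 0.0662 from limma). Without embryo 6 there were 24 risen genes, and without *Gm42418* and mitochondrial genes in the total 23.

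Genes of sterol efflux and fatty acid metabolism were split. Of 14 tested, 7 rose (50%, against 6.39% of all genes tested) and 3 fell (21.4%, against 8.17%). Without embryo 1 there were 4 risen and 3 fallen genes, without embryo 6 there were 7 and 4, and without the block 5 and 2. *Abca1*, which exports cholesterol and is induced by excess sterol, was at 115, 153 and 150 in cortex and at 4.87, 11.6 and 31.4 in culture, and it fell by 3.38 on the log2 scale (SE 0.46, adjusted p = 2.75e-04 from limma). *Apoe*, the main apolipoprotein of the brain, fell by 1.31 and *Lpl*, which releases fatty acids from lipoproteins, by 2.25. *Scd1*, a fatty acid desaturase, rose by 3.29 (SE 0.25, adjusted p = 1.41e-06 from limma), from 45.2, 88.3 and 40.7 to 480, 546 and 610. *Fasn*, the fatty acid synthase, rose by 1.07 and *Elovl6*, an elongase, by 1.74. The risen genes named here make or modify fatty acids, while the fallen genes named here export, carry or release lipid. Whether the fall of microglia and vessel markers described further on had a part in these falls was not tested.

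Promoter windows of RefSeq (GRCm38.p6, 250 bases before to 50 bases after each start) were found for 17 of the 25 cholesterol genes. The CCAAT box, searched as CCAAT on both strands, was in 16 of the 17 (94.1%), against 37.4% of all 32851 windows and 43.4% of the 9797 genes tested that had one. The sterol regulatory element, searched as TCACNCCAC on both strands, was in 1 of the 17 (5.88%), that of *Hmgcs1*, against 1.24% of all windows and 1.38% of the genes tested. This only stretch found is shown with the element in capitals, 137 bases before the start, at chr13:119690204-119690233 on the plus strand.
Hmgcs1: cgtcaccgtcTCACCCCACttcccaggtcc

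Targets of growth factor signalling rose as well. Of 18 tested EGF and FGF feedback targets, 11 rose (61.1%, against 6.39% of all genes tested) and 0 fell. Their median log2 fold change was 1.49. The single embryos had medians of 1.54, 1.46 and 1.59. *Dusp6*, a phosphatase that inactivates ERK, was at 53.1, 56.3 and 66.6 in the cortices and at 453, 310 and 928 in the cultures of embryos 1, 2 and 6. It rose by 3.10 on the log2 scale (SE 0.25, adjusted p = 2.9e-06 from limma). *Spry2* and *Spry4*, inhibitors of receptor tyrosine kinase signalling, rose by 2.80 and 3.96. *Etv5* and *Etv4*, ETS factors induced by FGF, rose by 2.32 and 2.74, and *Dusp5*, another ERK phosphatase, by 3.11. *Spred1* was close to the threshold, with a rise of 0.51 (adjusted p = 0.0462 from limma). *Spry1* (1.84, adjusted p = 0.0507 from limma) and *Il17rd* (-0.76, adjusted p = 0.357 from limma) did not pass. The count was 11 without embryo 6 as well, and 9 without embryo 1.

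The receptors and ligands gave fewer calls. Of 11 tested EGF and FGF receptors and ligands, 1 rose and 1 fell (9.09% each, against 6.39% and 8.17% of all genes tested), and without embryo 6 there were 2 risen and 3 fallen genes. *Fgfr1* went from 180, 185 and 244 to 339, 458 and 396, a rise of 0.97 on the log2 scale (SE 0.19, adjusted p = 0.00361 from limma). *Fgfr3*, an FGF receptor of apical progenitors, went from 367, 362 and 598 to 137, 190 and 86.0, and fell by 1.71 (SE 0.28, adjusted p = 0.00125 from limma). *Fgfr2* had a log2 fold change of -0.75 (adjusted p = 0.101 from limma). The EGF receptor gene *Egfr* was at 23.7, 25.4 and 18.01 in cortex and at 35.1, 64.2 and 8.96 in culture, so that the groups overlapped (0.31, adjusted p = 0.757 from limma). At 24 h the same embryos had *Egfr* counts of 78.1, 115 and 130.

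Immediate early genes, which respond to a stimulus without new protein synthesis, were among the genes that rose. Of 24 tested, 11 rose (45.8%, against 6.39% of all genes tested) and 0 fell, with a median log2 fold change of 0.99. *Egr1* (ENSMUSG00000038418) was at 25.97, 30.9 and 31.3 in cortex and at 1088, 1001 and 932 in culture, a log2 fold change of 5.05 (SE 0.21, adjusted p = 5.32e-09 from limma). At 24 h it was at 624, 659 and 683 in these embryos, between both. *Fos* was at 4.52, 1.10 and 3.13 in cortex and at 81.9, 182 and 111 in culture. Its log2 fold change of 5.04 (SE 0.65, adjusted p = 1.87e-04 from limma) rests on few reads in cortex. Further AP-1 members rose less, with 0.72 for *Jun*, 2.26 for *Junb*, 2.54 for *Fosl2* and 2.43 for *Maff*. *Klf6*, a zinc finger factor, rose by 1.89 and *Arc*, a synaptic gene induced by activity, by 2.99. *Atf3*, induced by stress and injury, was at 39.0, 32.6 and 4.48 in the cultures of embryos 1, 2 and 6 and missed the threshold (2.04, adjusted p = 0.203 from limma). Without embryo 6 there were 14 risen genes and 1 fallen gene in this list, and without embryo 1 there were 7 risen genes.

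**Figure D2:**
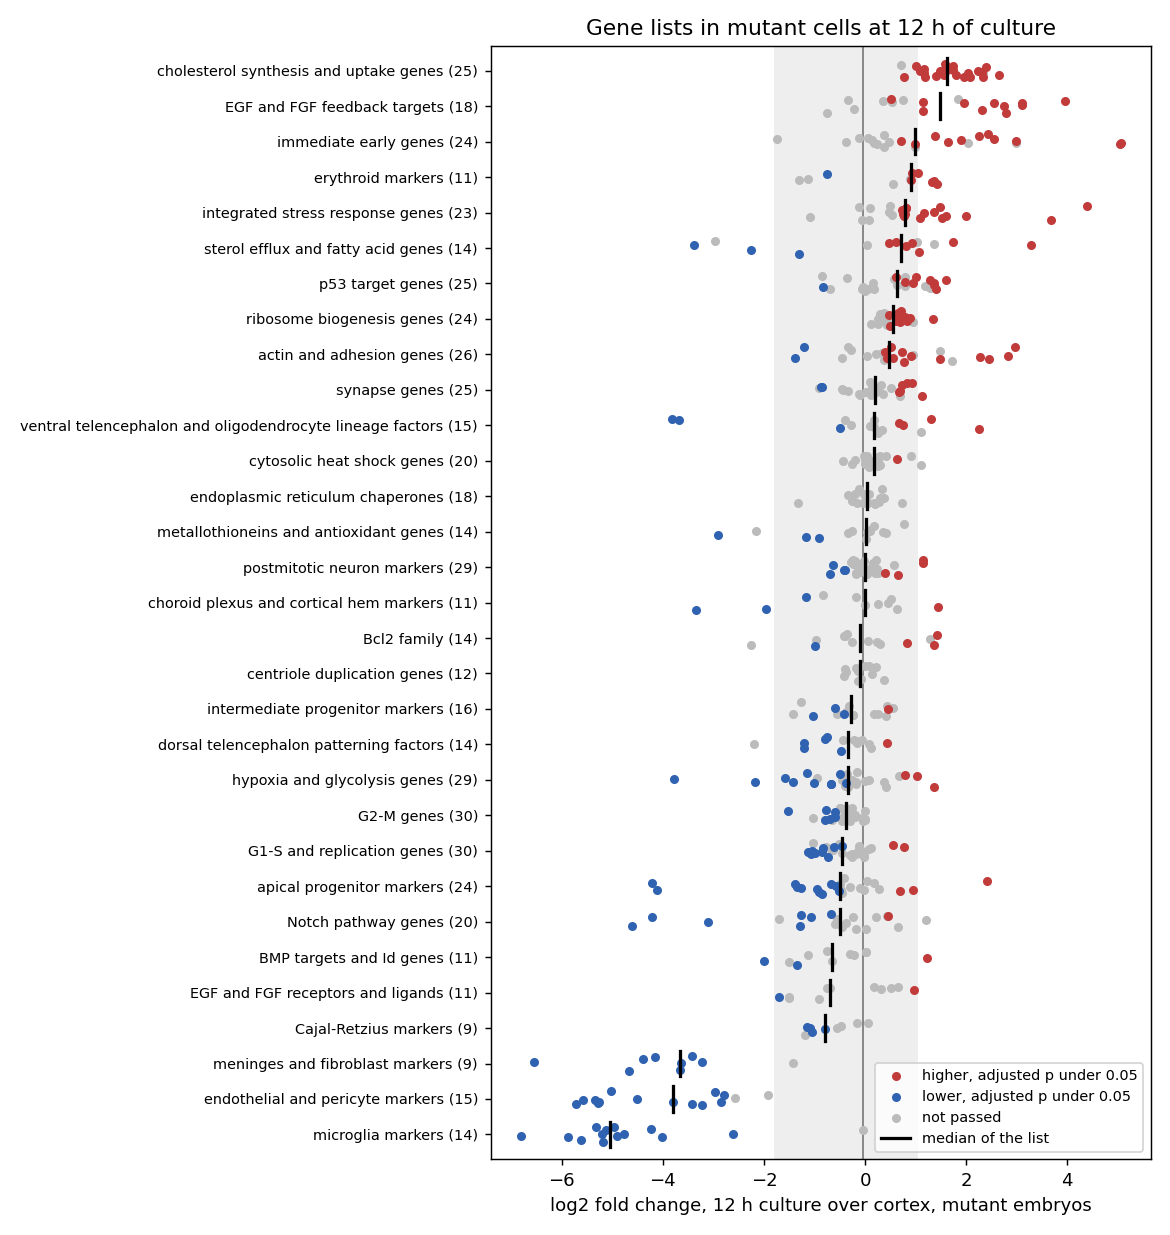
Log2 fold change (12 h culture over cortex, 3 mutant embryos) of each tested gene of 31 lists, with the number tested in brackets, ordered by the median of the list (black bar). The grey band spans the middle 90% of all genes tested, from -1.78 to 1.02, and the grey line is their median of -0.04. Of the lists plotted, those of microglia, endothelial and meningeal markers have medians left of the band, and the cholesterol and the EGF and FGF feedback lists have medians right of it.

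Genes of the integrated stress response rose, and the lists of chaperones of the endoplasmic reticulum and of the cytosol gave few calls. The integrated stress response slows translation in general and favours *Atf4*, whose protein induces amino acid transporters, synthetases and tRNA ligases. Of 23 tested genes of this response, 15 rose (65.2%, against 6.39% of all genes tested) and 0 fell, with a median log2 fold change of 0.79. *Atf4* (ENSMUSG00000042406, chromosome 15, 80255184 to 80257541, plus strand) went from 2144, 1601 and 1955 in the cortices of embryos 1, 2 and 6 to 4900, 4356 and 3504 in culture, a rise of 1.16 on the log2 scale (SE 0.13, adjusted p = 6.74e-05 from limma). *Asns*, the asparagine synthetase, went from 82.4, 64.0 and 75.2 to 329, 269 and 299, a rise of 2.01 (SE 0.22, adjusted p = 4.91e-05 from limma). *Chac1*, which degrades glutathione, rose by 3.67 and *Slc7a3*, a transporter of cationic amino acids, by 4.38. *Mthfd2*, of mitochondrial folate metabolism, rose by 1.37 and *Ddit3*, which encodes CHOP, by 0.79. *Slc7a11*, the cystine transporter, was at 25.97, 19.9 and 45.4 in cortex and at 27.3, 20.0 and 3.58 in culture and missed the threshold (-1.09, adjusted p = 0.34 from limma). The count was 15 without embryo 6 and 11 without embryo 1.

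The C/EBP-ATF response element, through which ATF4 acts, was searched as TGATGNAA on both strands in the same promoter windows. It was in 7 of the 20 windows found for this list (35.0%), against 3.97% of all windows and 2.52% of the genes tested. Of these 7 genes 5 rose, among them *Asns*, *Chac1*, *Gars* and *Vldlr*, and *Slc7a11* and *Pycr1* (-0.12, adjusted p = 0.79 from limma) did not pass. The stretches of these 4 risen genes are shown on the strand of the gene with the element in capitals. A match of letters is a description and does not show binding. *Asns* lies at chr6:7693214-7693243 on the minus strand, *Chac1* at chr2:119351038-119351067, *Gars* at chr6:55037960-55037989 and *Vldlr* at chr19:27216809-27216838, the latter 3 on the plus strand.
Asns: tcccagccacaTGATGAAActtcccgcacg
Chac1: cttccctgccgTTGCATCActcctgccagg
Gars: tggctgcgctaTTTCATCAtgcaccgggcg
Vldlr: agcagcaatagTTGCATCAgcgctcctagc
The first of these holds the element in the direction of the gene and the other 3 on the opposite strand. *Gars*, which charges tRNA with glycine, rose by 0.74, and *Vldlr*, a receptor for lipoproteins and reelin, by 0.75 on the log2 scale.

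Few chaperone genes passed. Of 18 tested genes of endoplasmic reticulum folding, 0 passed in limma, against 14.6% of all genes tested, and 0 in edgeR. In this list 4 of the 18 had an unadjusted p under 0.05, against 4064 of all 13617 genes tested. Without embryo 6 there were 2 risen genes in this list. The largest of these rises was that of *Herpud1*, a part of the degradation machinery of that compartment, with 0.73 on the log2 scale (adjusted p = 0.0711 from limma). Of 20 cytosolic and mitochondrial heat shock genes, 1 rose and 0 fell, and the risen share of 5% was near the 6.39% of all genes tested. The risen gene was *Hspd1*, the mitochondrial chaperonin, with 0.64 (SE 0.12, adjusted p = 0.00385 from limma), and without embryo 6 there were 5 risen genes.

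Ribosome biogenesis genes rose, although the share of ribosomal protein genes was lower in culture. All 24 tested had a positive log2 fold change, 13 rose (54.2%, against 6.39% of all genes tested) and 0 fell, and the median was 0.56. *Gnl3*, a nucleolar protein of stem and progenitor cells, was at 484, 505 and 518 in cortex and at 1051, 1338 and 1468 in culture, a rise of 1.34 (SE 0.14, adjusted p = 3.08e-05 from limma). *Ncl*, nucleolin, rose by 0.71. Without embryo 1 there were 7 risen genes, and without embryo 6 there were 16.

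Of 20 tested genes of the Notch pathway, 7 fell (35.0%, against 8.17% of all genes tested) and 1 rose, with a median log2 fold change of -0.50. *Hes5*, the main Notch target of apical progenitors, was at 1197, 1367 and 1090 in the cortices of embryos 1, 2 and 6 and at 71.2, 57.9 and 65.4 in culture. It fell by 4.21 on the log2 scale (SE 0.18, adjusted p = 6.5e-09 from limma), and at 24 h it was at 117, 142 and 139. *Hes1*, a further target, fell by 1.27, *Nrarp*, a feedback inhibitor, by 1.07 and the receptor gene *Notch1* by 0.68. *Notch3* and *Heyl*, which are also expressed in pericytes, fell along with the vessel markers described further on. *Notch3* fell by 3.10, and *Heyl* was at 27.1, 21.0 and 22.7 in cortex and at 0 in all 3 cultures, at least 24.3-fold lower when 3 reads are allowed over the cultures. *Hes6*, which opposes *Hes1* in cells on the way to neurons, rose by 0.45. The ligands did not pass, with 0.44 for *Dll1* (adjusted p = 0.214 from limma) and -1.71 for *Jag2* (adjusted p = 0.101 from limma).

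Among 24 apical progenitor markers, 11 fell (45.8%, against 8.17% of all genes tested) and 3 rose, with a median log2 fold change of -0.49. *Fabp7*, a lipid binding protein of radial glia, went from 351, 438 and 692 to 144, 137 and 296 and fell by 1.39 (SE 0.18, adjusted p = 1.88e-04 from limma). *Slc1a3*, a glutamate transporter of radial glia, fell by 0.91 and *Nes*, the intermediate filament nestin, by 0.85. *Vim*, vimentin, moved the other way, from 3062, 3236 and 3614 to 5506, 6619 and 7007, a rise of 0.94. *Hopx*, a marker of outer radial glia, rose by 2.41 from low counts of 9.03, 16.6 and 16.4. *Sox2*, the general progenitor factor, was at 1761, 1827 and 2178 in cortex and at 1935, 2519 and 2058 in culture and missed the threshold (0.17, adjusted p = 0.404 from limma). Without embryo 1 there were 7 fallen apical markers and 4 fallen Notch genes, and without embryo 6 there were 13 and 8.

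The Id genes split. *Id2* rose by 1.22 (SE 0.12, adjusted p = 1.62e-05 from limma), while *Id3* fell by 1.995 and *Id4* by 1.34. These genes encode inhibitors of basic helix-loop-helix factors and are targets of BMP signalling. Of 11 tested genes of this list, 1 rose (9.09%, against 6.39% of all genes tested) and 2 fell (18.2%, against 8.17%). There were 4 fallen genes without embryo 6 and 3 without embryo 2.

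Regional factors moved in part. Of 14 dorsal patterning factors, 5 fell (35.7%, against 8.17% of all genes tested) and 1 rose, and without embryo 6 there were 6 fallen and 1 risen. *Pax6*, a dorsal progenitor factor, went from 466, 414 and 637 to 253, 298 and 313, and it fell by 0.79 (SE 0.17, adjusted p = 0.00732 from limma). *Wnt7b* fell by 1.21 and *Lef1*, a mediator and target of Wnt signalling, by 1.21. Of 15 ventral and oligodendrocyte lineage genes, 4 rose (26.7%, against 6.39%) and 3 fell (20.0%, against 8.17%), also without embryo 6, and without the block there were 2 and 2. *Olig1* went from 14.7, 32.0 and 20.4 to 105, 113 and 100.3, a rise of 2.26, and its counts at 24 h were 585, 490 and 590. *Olig2* went from 88.1, 134 and 114 to 212, 394 and 245, a rise of 1.30, with 519, 959 and 738 at 24 h. The 24 h cultures lay above the 12 h cultures for both genes in each embryo, which was not tested here. The oligodendrocyte precursor genes *Pdgfra* and *Cspg4*, also expressed in pericytes and fibroblasts, fell in all 3 embryos. On the log2 scale *Pdgfra* fell by 3.67 and *Cspg4* fell by 3.81.

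Of 16 intermediate progenitor markers tested, 3 fell (18.8%, against 8.17% of all genes tested) and 1 rose (6.25%, against 6.39%). There was 1 fallen gene without embryo 1 and also without the block, and there were 4 without embryo 6. *Eomes* went from 1633, 1424 and 1640 to 743, 940 and 645, and it fell by 1.03 (SE 0.15, adjusted p = 5.84e-04 from limma). *Neurog2*, a proneural factor, had a log2 fold change of -0.31 (adjusted p = 0.287 from limma). Of 29 postmitotic neuron markers 4 rose and 4 fell (13.8% each, against 6.39% and 8.17% of all genes tested). There were 2 risen and 2 fallen markers without embryo 1, 5 and 2 without embryo 2, 5 and 6 without embryo 6, and 3 and 0 without the block. *Snap25*, of the synaptic release machinery, rose by 1.14 and *Bhlhe22*, a factor of cortical projection neurons, by 1.14, while *Tubb3*, neuronal tubulin, fell by 0.42. Of 25 synapse genes 6 rose (24.0%) and 2 fell (8%), and there were 3 risen and 2 fallen genes without embryo 1 and 8 and 5 without embryo 6. *Gria2*, a subunit of AMPA receptors, rose by 0.92 and *Vamp2*, a vesicle protein, fell by 0.87.

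Cell cycle genes fell in part. Of 30 genes of the G1-S transition and replication, 9 fell (30%, against 8.17% of all genes tested) and 2 rose, with a median log2 fold change of -0.46. The D cyclins moved in opposite directions. *Ccnd2* went from 32436, 29413 and 33194 to 16689, 20960 and 16261, and it fell by 0.83 (SE 0.14, adjusted p = 0.0019 from limma). *Ccnd1*, a target of ERK signalling, went from 636, 862 and 924 to 1099, 1260 and 1785, a rise of 0.76 (SE 0.13, adjusted p = 0.00204 from limma). *Mcm5*, a subunit of the replicative helicase, fell by 0.98. Of 30 G2-M genes, 6 fell (20.0%) and 0 rose, and 29 had a negative log2 fold change. *Ccnb2*, a mitotic cyclin, fell by 1.53 and *Mki67*, the proliferation marker, by 0.78. Without embryo 1 there were 4 fallen G1-S genes and 3 fallen G2-M genes, without embryo 2 there were 9 and 11, and without embryo 6 there were 9 and 7.

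The factor p53 acts when centrosome loss prolongs mitosis, and its targets were of interest in the study. Of 25 targets tested, 9 rose (36%, against 6.39% of all genes tested) and 1 fell, with a median log2 fold change of 0.64. In the control embryos 7 genes of this list rose and 1 fell, with a median of 0.63. *Cdkn1a*, which encodes the cell cycle inhibitor p21, was at 550, 634 and 443 in cortex and at 1597, 1791 and 984 in culture, a rise of 1.39 (SE 0.14, adjusted p = 1.93e-05 from limma). The control embryos had a log2 fold change of 1.42 for this gene, and the difference between the genotypes was -0.02 (adjusted p = 0.983 from limma). *Mdm2*, the feedback inhibitor of p53, rose by 0.95 and *Sesn2*, which the integrated stress response list also holds, by 1.61. The gene that fell was *Ccnd2*, given above. Among 14 genes of the Bcl2 family, the proapoptotic genes *Bbc3* (1.36), *Hrk* (1.42) and *Bcl2l11* (0.83) rose and *Bad*, also proapoptotic, fell by 0.99. The risen share of this family was 21.4%, against 6.39% of all genes tested, and the fallen share 7.14%, against 8.17%. Without embryo 1 there were 6 risen p53 targets, and without embryo 6 there were 9 of these and 3 risen genes of the Bcl2 family. Of 12 centriole duplication genes, 0 passed in limma, against 14.6% of all genes tested, and 0 in edgeR. The count was also 0 without embryo 6. Of these 12 genes 0 had an unadjusted p under 0.05, against 4064 of all 13617 genes tested.

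Hypoxia and glycolysis genes fell more often than they rose, with 10 lower (34.5%, against 8.17% of all genes tested) and 3 higher (10.3%, against 6.39%) of 29 and a median log2 fold change of -0.34. *Slc2a1*, a glucose transporter that endothelium also expresses, fell by 1.42, and *Slc16a3*, a lactate exporter, by 3.78. *Hk2*, the inducible hexokinase, went from 180, 159 and 247 to 491, 495 and 508, a rise of 1.37. The metallothionein genes *Mt1* (-0.91), *Mt2* (-1.16) and *Mt3* (-2.91) fell, and they were the 3 fallen genes of 14 metallothionein and antioxidant genes, of which 0 rose. The fallen share was 21.4%, against 8.17% of all genes tested. Without embryo 1 there were 5 fallen hypoxia and glycolysis genes, and without embryo 6 there were 11, beside 3 fallen and 1 risen metallothionein and antioxidant genes.

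Genes of actin and adhesion rose more often than they fell, with 12 higher (46.2%, against 6.39% of all genes tested) and 2 lower of 26 and a median log2 fold change of 0.48. *Lgals1*, galectin 1, went from 330, 332 and 323 to 2281, 2829 and 2001, a rise of 2.83 (SE 0.14, adjusted p = 2.76e-08 from limma). *S100a6*, a calcium binding protein, rose by 2.45 and *Lmna*, lamin A/C, by 1.49. *Tagln*, transgelin, rose by 2.96 with an uneven spread, from 6.77, 9.94 and 10.2 to 80.9, 254 and 20.6. *Myl9* (-1.39) and *Tpm2* (-1.20), of contractile cells, fell. There were 6 risen genes without embryo 1, 7 without embryo 2, 16 without embryo 6 and 7 without the block.

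Markers of vessels, meninges and microglia fell and had the lowest medians of all lists. In bulk samples, fewer cells of a type and less RNA per cell cannot be told apart. Of 14 microglia markers 13 fell, of 15 endothelial and pericyte markers 13 fell, and of 9 meningeal and fibroblast markers 8 fell, against 8.17% of all genes tested. Their medians were -5.05, -3.80 and -3.66. Many of these markers reached the mean count of 10 mainly through the cortices, so the numbers that fell are a description only. None of the 3 lists had a risen gene. The summed count of 16 microglia markers was 1292, 1556 and 1246 in the cortices of embryos 1, 2 and 6 and 66.3, 45.2 and 60.9 in culture. *Cx3cr1*, the fractalkine receptor of microglia, was at 405, 390 and 304 in cortex and at 7.80, 1.05 and 0.896 in culture, and it fell by 6.81 (SE 0.51, adjusted p = 1.24e-06 from limma). *Aif1* was at 0 in all 3 cultures, at least 37.2-fold lower. *Cd68*, of lysosomes in many cells, was the exception (-0.04, adjusted p = 0.971 from limma). Without embryo 6 the counts of fallen markers were 13, 13 and 8, and without embryo 1 they were 10, 11 and 7.

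The summed count of 18 endothelial and pericyte markers went from 1988, 2224 and 1861 to 157, 168 and 203. *Cldn5*, a tight junction protein of brain endothelium, was at 115, 124 and 114 in cortex and at 1.95, 7.37 and 0 in culture. *Kdr*, the VEGF receptor, fell by 3.22. Collagen *Col1a1*, of meningeal fibroblasts, went from 491, 571 and 514 to 34.1, 54.7 and 59.1, and it fell by 3.42, and *Foxc1*, a meningeal factor, was at 0 in all cultures, at least 99.97-fold lower. Of 9 Cajal-Retzius markers, genes of early marginal zone neurons, 4 fell (44.4%, against 8.17% of all genes tested), with *Reln* at -0.78, and 5 of the 9 were lower in culture in each of the 3 embryos. There were 6 fallen markers without embryo 6 and 2 without embryo 2.

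**Figure D3:**
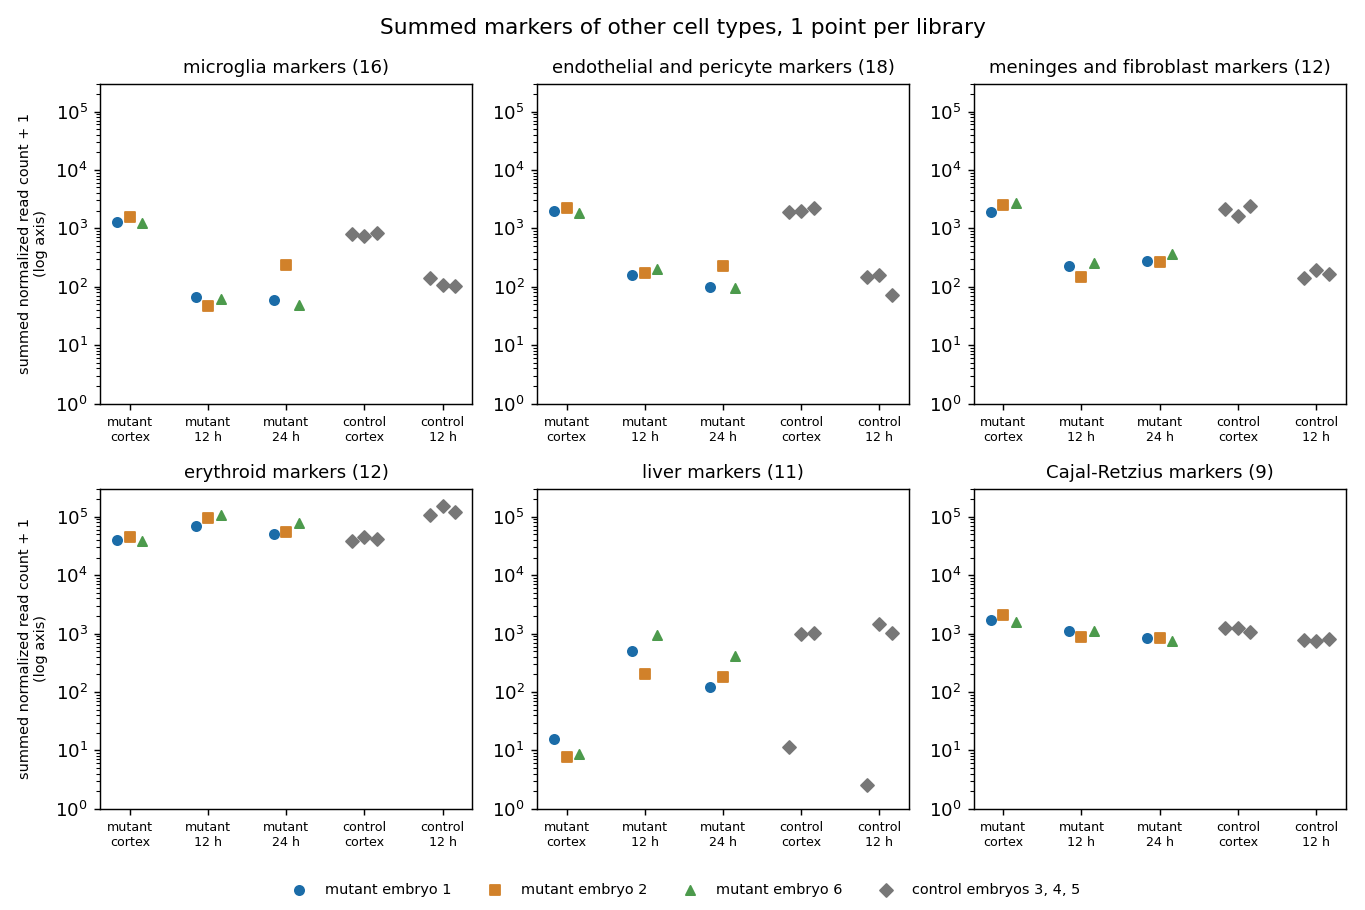
Summed normalized read count plus 1 (log axis) of the markers of 6 other cell types, with the number of genes in brackets and 1 point per library, for mutant cortex, mutant 12 h and 24 h cultures and the control cortex and 12 h cultures. Microglia, endothelial and meningeal sums were lower in every 12 h culture than in every cortex, erythroid sums were higher, Cajal-Retzius sums differed less, and the mutant liver sums lay between 6.62 and 14.7 in cortex and between 199.9 and 941 at 12 h.

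Red blood cell transcripts went the other way. Of 11 erythroid genes tested, 6 rose (54.5%, against 6.39% of all genes tested) and 1 fell, and the 6 are globin genes. Without embryo 6 there were 6 risen and 2 fallen genes. The summed count of 12 erythroid markers went from 40711, 45347 and 38970 to 69586, 94234 and 108821. *Hba-x*, an embryonic globin, went from 531, 583 and 539 to 1005, 1552 and 2110, a rise of 1.43. *Alas2*, of haem synthesis in erythroid cells, missed the threshold (0.56, adjusted p = 0.2 from limma), and *Slc25a37*, the mitochondrial iron importer, fell by 0.75. The pairs *Hba-a1* and *Hba-a2*, and *Hbb-bs* and *Hbb-bt*, are near-identical copies, so their single counts are uncertain. Choroid plexus and hem markers moved both ways, with log2 fold changes of 1.44 for *Ttr*, -3.35 for *Rspo1* and -1.97 for *Wnt8b*. Of 11 such markers 1 rose (9.09%, against 6.39% of all genes tested) and 3 fell (27.3%, against 8.17%). Without embryo 6 there were 2 and 3.

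Liver transcripts appeared in the mutant cultures. Of 11 liver genes 7 were tested, and these reached the mean count of 10 through the cultures, so that the number of them that rose, 5 with and without embryo 6, is a description only. *Alb*, serum albumin, was at 0 in the 3 cortices and at 107, 57.9 and 206 in the cultures of embryos 1, 2 and 6, at least 127-fold higher when 3 reads are allowed over the cortices. *Serpina1e*, an antitrypsin, was at 0 in cortex and at 152, 44.2 and 235 in culture, at least 147-fold higher, and its near-identical family members make its count uncertain. *Serpina3k* was at least 72.4-fold higher. The summed count of 11 liver markers was 14.7, 6.62 and 7.83 in the mutant cortices, 503, 199.9 and 941 at 12 h, and 119.7, 181 and 413 at 24 h. In control embryos 3, 4 and 5 the same sum was 10.6, 989 and 1016 in cortex, 1.57, 1451 and 1025 at 12 h, and 6.83, 1.69 and 5.001 at 24 h. The sums of control embryos 4 and 5 were thus above those of the mutants at 12 h and in cortex and low at 24 h, and those of control embryo 3 were low throughout. How these transcripts entered the samples was not tested.

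The response of mutant cells was set beside that of control cells, to see whether the genotype changed it. The test of the difference between both responses, over 13601 genes in limma with the embryo as a block, passed for 3 genes (0.0221%), and 765 genes (5.62%) had an unadjusted p under 0.05. With a pseudocount of 0.1, without the block, without mutant embryo 6 or without control embryo 4 it passed for 0 genes. It passed for 1 higher gene without control embryo 3, for 2 higher genes without mutant embryo 1, and for 163 higher and 114 lower without control embryo 5. The 3 genes were *Alb* and *Serpina1e*, with differences of 6.23 and 6.63 on the log2 scale, and *Rn7sk*, a noncoding RNA that restrains transcription elongation, with -2.38 (SE 0.30). *Rn7sk* rose in both genotypes, from 120, 155 and 88.5 to 2345, 3539 and 1544 in the mutants and from 29.4, 14.52 and 17.4 to 2500, 2541 and 1461 in the controls. Its culture counts overlapped between genotypes and its cortex counts did not.

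Over the 13175 genes tested in both genotypes, the log2 fold changes correlated at r = 0.737, over genes that are not independent. The embryos of both responses differ, and no cortex is shared. Of these 13175 genes, 1971 were mutant calls and 1663 were control calls. Of the 1971 mutant calls, 1017 were also control calls (51.6% of the mutant and 61.2% of the control calls), and 1015 had the same direction. A further measure needs no call in the controls, and 1905 of the 1971 mutant calls (96.7%) had the same sign there. The share with the same sign over all 13175 genes was not computed. For *Hes5* the mutant and control values were -4.21 and -4.24, for *Insig1* 2.40 and 2.33, and for *Egr1* 5.05 and 5.59. Genes with small unadjusted p in the difference but no pass were *S100a6* (difference 1.63, adjusted p = 0.17 from limma), *Kdr* (2.49, adjusted p = 0.17), *Ttr* (2.61, adjusted p = 0.17) and *Cx3cr1* (-3.38, adjusted p = 0.26). A p that misses the threshold does not show that the responses were alike.

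**Figure D4:**
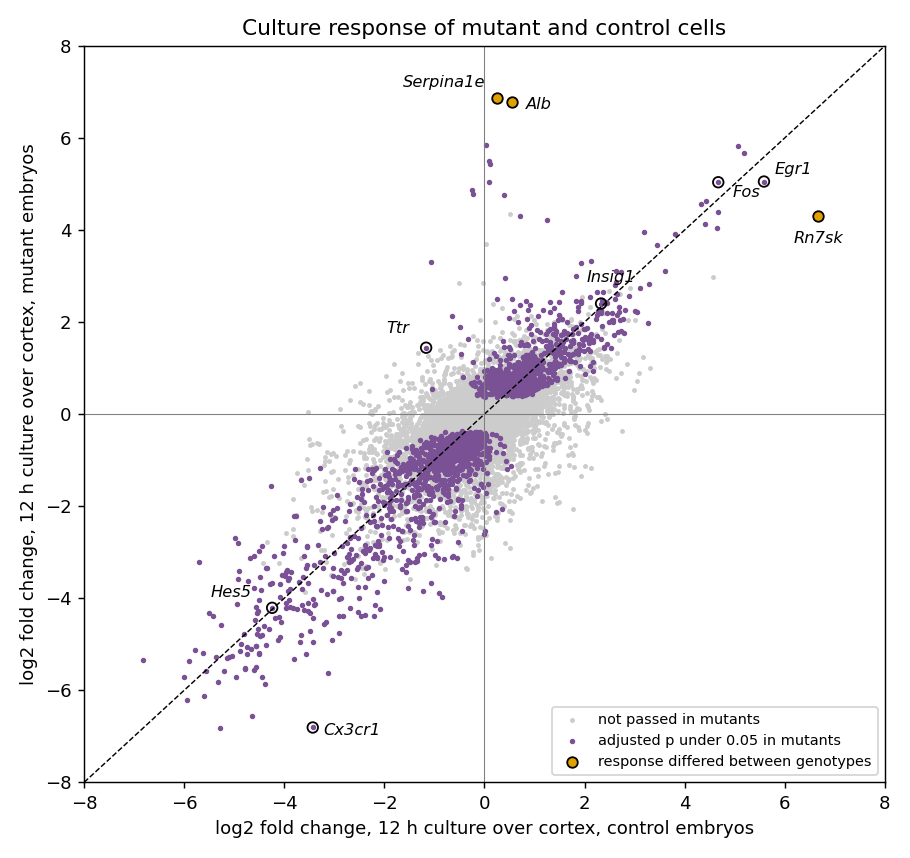
Log2 fold change (12 h culture over cortex) of the 13175 genes tested in both genotypes, in control embryos on the x axis and mutant embryos on the y axis, with the line of equality dashed. Most mutant calls (purple) lie near the line with the same sign in the controls, and *Alb*, *Serpina1e* and *Rn7sk* (orange) are the genes whose difference passed.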

How the data were processed

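Per the study's methods and the submitters' processing notes, QuantSeq 3′ libraries were aligned with TopHat2 2.0.10 (Bowtie 1.0.0, SAMtools 0.1.19) to GRCm38 and counted per gene with HTSeq 0.6.1, using strand. The authors deposited a signal table of 54658 genes in 24 libraries, read counts divided by a size factor for each library. Whole reads came back for 100% of the values above 0, within 0.01 of a read. The deposited values were tested as log2(value + 1), where the mean over the libraries compared reached 10, with limma 3.58.1 (R 4.3.3), the embryo as a block and Benjamini-Hochberg adjustment at 0.05. Fold changes are on this scale, which understates those of low genes. Same-numbered samples come from the same embryo, and their deviations correlated at 0.158, 0.0732 and 0.174. The difference between genotypes was an interaction term over 12 libraries. Symbols were matched to GENCODE vM21, coordinates are of GRCm38, and 53994 genes matched. Promoters are RefSeq windows without those of chromosome 18.

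Named were the 10 largest rises and falls among genes past the threshold with 1 direction in 3 embryos and a mean of at least 50 in the higher group, marked members of each list with the 2 smallest p in each direction, the genes past the interaction test, *Cep135* and *Cdkn1a*. The remaining genes were picked once values had been seen. The comparison and the lists were chosen with earlier results of these data known. Alternatives were other pseudocounts, filters, scalings and thresholds, edgeR 4.0.16 and DESeq2 1.42.0 on the whole reads, the fit without the block, 18 libraries in 1 fit, and each embryo left out. Replicates are embryos. With the block, the p-values rest on how the difference between culture and cortex spread between embryos. Limma moderated these variances over genes. Some genes of the lists are not reported here by name.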

Additional observations from a re-analysis of the deposited data

Results flagged for a closer look

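The culture response differed between the genotypes, by the test of the difference itself, for 3 genes. This count was 0 without the embryo as a block, with a pseudocount of 0.1, without mutant embryo 6 and without control embryo 4, while 163 higher and 114 lower genes passed without control embryo 5, 4 higher and 1 lower in edgeR, and 15 and 4 in DESeq2. *Alb* differed by 6.23 on the log2 scale (mutant minus control; standard error 0.76, adjusted p = 0.0139 from limma), with culture above cortex in 3 of 3 mutant embryos. It was at 0, 319 and 289 in the cortices of control embryos 3, 4 and 5 and at 1.57, 296 and 379 in their cultures. *Serpina1e* differed by 6.63 (standard error 0.87, adjusted p = 0.0139 from limma), again higher in 3 of 3 mutant cultures. *Rn7sk* differed by -2.38 (standard error 0.30, adjusted p = 0.0139 from limma), with culture above cortex in 3 of 3 embryos of each genotype. The causes were not tested.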

How the results depend on the processing

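Without the embryo as a block, that is without the pairing, 540 genes rose and 679 fell, and at an adjusted p under 0.01 there were 365 and 480. Leaving out each embryo gave 340 to 1367 risen and 512 to 1695 fallen genes, the lowest without embryo 1 and the highest without embryo 6. Other settings stayed within 1.5 times, with 799 and 901 genes in edgeR and 785 and 1000 in DESeq2. With no filter on low values the median over all genes was -0.24, and other settings gave -0.08 to 0.01. For the difference between genotypes, the fit without the block and the pseudocount of 0.1 gave 0 higher and 0 lower genes, a mean of at least 50 gave 1 higher, edgeR 4 higher, and DESeq2 15 higher and 4 lower. Leaving out each embryo gave 0 to 163 higher and 0 to 114 lower genes, the highest without control embryo 5, and 0 in all without mutant embryo 6 or control embryo 4. The adjusted p of the difference between genotypes in Alb was 0.0701 and 0.321 there. Genes that had not passed changed sign when an embryo was left out, *Egfr* between -0.19 and 0.93, *Cd68* between -0.22 and 0.21 (0.19 with quantile normalization), *Pycr1* between -0.37 and 0.17 and *Slc7a11* between -1.67 and 0.039. The cause was not tested. List medians of the Bcl2 family, centriole duplication, choroid plexus, endoplasmic reticulum chaperone, metallothionein and postmitotic neuron genes changed sign between settings. The depth limits genes with few reads, such as *Fos* in cortex.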

Other observations

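Further genes, chosen after their values were seen, changed by more than the spread between embryos. The osmolyte transporter genes *Slc5a3*, for myo-inositol, and *Slc6a6*, for taurine, rose together. *Slc5a3* went from 246, 251 and 195 in the cortices of embryos 1, 2 and 6 to 1346, 1736 and 1323 in culture, a log2 fold change of 2.66 (standard error 0.15, adjusted p = 9.23e-08 from limma), and *Slc6a6* rose by 1.31. The secreted neuronal genes *Vgf* and *Bdnf*, both induced by activity, rose by 3.91 and 2.65. *Kcnc1*, a potassium channel gene, went from 397, 359 and 208 to 1492, 1829 and 1053, a rise of 2.19.

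The imprinted noncoding RNA *H19* went from 4588, 5066 and 2827 to 487, 648 and 326, a fall of 3.10 (standard error 0.13, adjusted p = 4.5e-09 from limma). The nuclear RNA *Malat1* rose by 1.74, from 14342, 11898 and 30808 to 50916, 50540 and 75581. *Sparcl1*, a matrix protein, fell by 3.04 and *Ndrg2* fell by 2.43. In control embryos the values of *Slc5a3*, *H19* and *Sparcl1* were 2.24, -2.75 and -2.18.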
